A study of Mus musculus with 18 samples.

Results

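The 10 genes described here code for proteins of the liver's extracellular matrix and for 1 adhesion molecule that marks matrix-producing cells. They are *Thbs1*, *Tnc*, *Sparc*, *Fn1*, *Fbln2*, *Vcan*, *Dcn*, *Lum*, *Bgn* and *Ncam1*. They were chosen by their symbols as a family, without a rule on their values but with earlier results of these data known. All 10 have a row among the 15052 genes of the deposited liver table. The table covers 18 mice in 4 groups from the chronic-plus-binge model of alcohol feeding. WT mice and mice of the genotype labelled ApoE, called *Apoe* KO here, were 10 to 12 weeks old, and all were listed as female. All took a liquid diet for 5 days of acclimation. The EtOH-fed mice (5 WT and 4 *Apoe* KO) then received the same kind of diet with 5% (v/v) ethanol for 10 days, followed by 1 gavage of ethanol at 5 g/kg on day 11, and livers were taken 9 h later. The 4 pair-fed WT and 5 pair-fed *Apoe* KO mice were kept on a control diet of equal calories over the same 10 days and were gavaged with dextrin-maltose at 9 g/kg. The *Apoe* KO allele is constitutive, so that it is carried by every cell of the animal and not by 1 liver cell type.

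The extracellular matrix is built from fibrous proteins, adhesive glycoproteins and proteoglycans, which are core proteins that carry long sulfated sugar chains. Matricellular proteins such as thrombospondin 1 (*Thbs1*), tenascin C (*Tnc*) and SPARC (*Sparc*) are secreted into the matrix but serve mainly to signal to cells rather than to bear load. In healthy liver most matrix proteins come from hepatic stellate cells, portal fibroblasts and endothelial cells, while plasma fibronectin (*Fn1*) is made in bulk by hepatocytes. In fibrosis, activated stellate cells and fibroblasts deposit more of many of these proteins.

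Each value is a read count for 1 gene in 1 liver that the authors had scaled, so that all mice reached nearly the same total, and rounded. The low values fall on even steps, and the step is the value of 1 read. In the 16 of 18 mice with a resolved step, the reads on genes were estimated at 5.60 M to 52.2 M, with the lowest median, 11.0 M, in EtOH-fed *Apoe* KO mice and the highest, 39.5 M, in the 3 resolved WT mice on ethanol. *Apoe* itself measured 611230 to 798431 in the 9 WT mice and 8586 to 108651 in the 9 *Apoe* KO mice, with no overlap, so that reads of the gene were lower but present in every *Apoe* KO liver. The mouse labelled EtOH-fed *Apoe* KO 1 went against its listed sex. Its *Xist* value, 826, lay below the 15227 to 30379 of the other 17 mice, and its values of the Y-linked genes *Ddx3y* (1077) and *Eif2s3y* (898) lay above all others, which reached 118 and 86. It was also the most deeply sequenced mouse of its group, at an estimated 45.8 M reads against 7.88 M to 13.5 M. Results for the 10 genes that rest on it are therefore also given without it.

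Per length of exon, the 10 genes spanned a wide range of levels, and the order of the means was nearly the same in the 4 groups. On the scale of deposited value per kb of exon, *Fn1* was the most abundant in pair-fed WT mice, at 3570.3 ± 467 (SD, n = 4). *Dcn* followed at 1151 ± 196, *Sparc* at 937 ± 196 and *Bgn* at 800 ± 127, and the ranges of these 3 genes overlapped one another. *Lum* (127 ± 32.3) and *Fbln2* (59.4 ± 21.6) came next, and their ranges of 89.5 to 167 and 35.9 to 82.9 did not meet. *Thbs1* (15.7 ± 5.77), *Ncam1* (10.5 ± 5.20) and *Tnc* (8.11 ± 4.55) overlapped as neighbours, and *Vcan* was the least abundant at 2.78 ± 1.42. In EtOH-fed *Apoe* KO mice *Sparc* stood second, at 1795 ± 541 per kb, above *Dcn* at 1553 ± 252 (n = 4), with overlapping ranges. *Ncam1* and *Tnc* were both at 19.0 per kb there (SD 12.8 and 11.2), and they change places between groups within their spread. The plot of levels per kb shows this ladder.

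**Figure D1:**
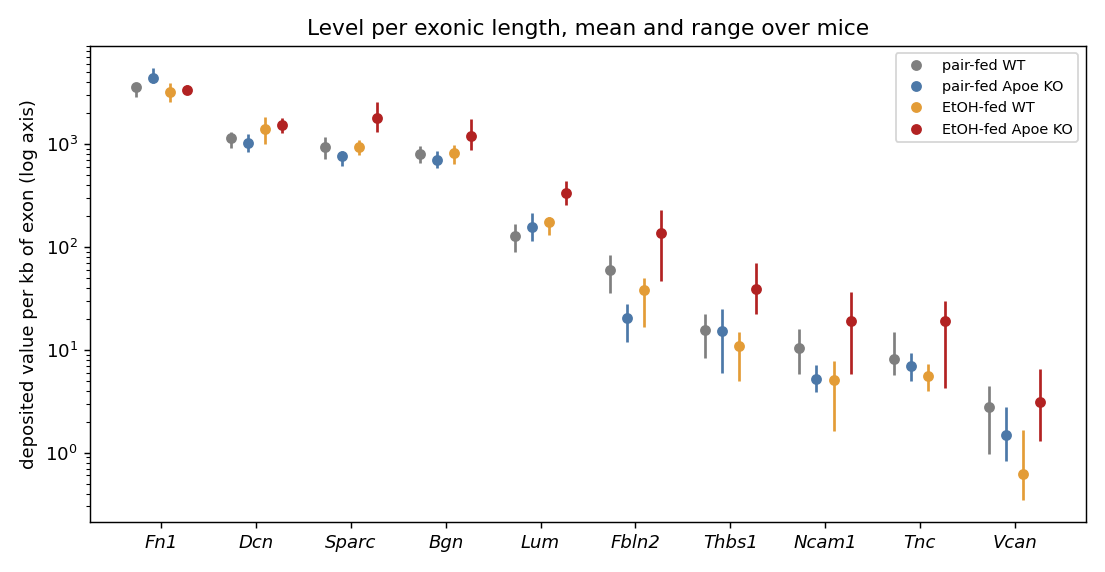
Deposited value per kb of exon for each gene (log axis), with the mean (point) and the lowest to highest mouse (line) of each group. *Fn1* is highest and *Vcan* lowest in all 4 groups, and in EtOH-fed *Apoe* KO mice the mean of *Sparc*, 1795, exceeds that of *Dcn*, 1553.

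The depth behind the scarce genes was low. *Vcan* rested on an estimated 6.10 to 52.6 reads per mouse, *Tnc* on at most 69.0, *Ncam1* on 9.00 to 82.1 and *Thbs1* on 16.0 to 190. *Fbln2* (46.9 to 425) and *Lum* (71.0 to 900) were better covered, and *Sparc*, *Bgn*, *Dcn* and *Fn1* had at least 634 reads in every resolved mouse.

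Promoter windows of 5 of the 10 genes, *Tnc*, *Vcan*, *Fbln2*, *Sparc* and *Bgn*, were present in the RefSeq table for GRCm38.p6, each running from 250 bases before to 50 bases after a transcription start. Those of *Fbln2*, *Sparc* and *Vcan* are shown because the ethanol responses of these 3 genes differed between genotypes, and that of *Tnc* because it varied from mouse to mouse with *Fbln2*. For *Vcan* that difference passed in only 4 of 18 fits with 1 mouse left out. They are written 5′ to 3′ on the strand of the gene, and capitals mark every match, on either strand, to 7 motifs. These are the TATA box with the letters TATAAA, the SMAD element with CAGAC, the AP-1 site with TGANTCA, the CRE with TGACGTCA, the GC box with GGGCGG, the TEAD site with GGAATG, and the box named after its letters CCAAT.
Fbln2, chr6:91212514-91212813, plus strand: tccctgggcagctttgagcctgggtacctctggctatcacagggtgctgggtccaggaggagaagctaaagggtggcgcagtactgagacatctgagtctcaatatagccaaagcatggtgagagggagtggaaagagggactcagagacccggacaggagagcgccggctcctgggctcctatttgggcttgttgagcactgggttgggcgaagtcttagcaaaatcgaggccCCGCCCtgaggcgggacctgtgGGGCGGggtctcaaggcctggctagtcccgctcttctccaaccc
Sparc, chr11:55420031-55420330, minus strand: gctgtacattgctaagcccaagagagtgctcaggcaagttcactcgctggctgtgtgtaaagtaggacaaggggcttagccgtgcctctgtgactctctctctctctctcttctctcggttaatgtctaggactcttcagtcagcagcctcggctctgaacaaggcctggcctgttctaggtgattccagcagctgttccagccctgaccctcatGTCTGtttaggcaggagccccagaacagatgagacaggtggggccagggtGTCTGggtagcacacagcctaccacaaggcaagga
Vcan, chr13:89742463-89742762, minus strand: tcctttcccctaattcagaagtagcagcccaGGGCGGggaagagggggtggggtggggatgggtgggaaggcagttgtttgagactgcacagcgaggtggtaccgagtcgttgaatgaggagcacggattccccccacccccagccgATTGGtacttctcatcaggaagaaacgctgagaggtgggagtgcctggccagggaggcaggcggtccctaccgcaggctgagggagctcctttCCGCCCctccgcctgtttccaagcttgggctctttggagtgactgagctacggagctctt
Tnc, chr4:64046966-64047265, minus strand: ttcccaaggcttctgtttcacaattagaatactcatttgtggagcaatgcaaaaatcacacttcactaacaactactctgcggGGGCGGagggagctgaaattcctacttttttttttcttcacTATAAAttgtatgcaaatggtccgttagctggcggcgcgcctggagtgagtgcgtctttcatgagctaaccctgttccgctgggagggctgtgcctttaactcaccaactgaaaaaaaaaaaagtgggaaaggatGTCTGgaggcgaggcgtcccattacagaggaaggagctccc
The *Fbln2* window held 2 GC boxes that flank the start and no other searched motif, and *Vcan* held 2 GC boxes and 1 CCAAT box. The *Sparc* window had neither a GC box nor a TATA box, and its only matches were 2 copies of CAGAC read on the opposite strand. *Tnc* alone among the 4 contained TATAAA, together with 1 GC box and 1 SMAD element. The TATAAA begins at base −126 from the start, and whether it acts as a TATA box was not tested. The table held a second *Tnc* window, shifted downstream (chr4:64046887-64047186, not shown), which carries the same matches and 1 more SMAD element. In it TATAAA begins at base −205 from the start. The *Bgn* window, not shown, held 3 GC boxes, of which 2 overlap. Among all 32851 windows of 300 bases, 35.7% held the GC box, 49.6% CAGAC, 37.4% CCAAT, 14.7% GGAATG, 13.6% TATAAA, 7.81% TGANTCA and 1.79% TGACGTCA. No letters of the AP-1, CRE or TEAD motif occurred in the 4 windows shown, and no motif was common to all 4.

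An experiment within the study asked what role *Apoe* has in alcohol-associated liver disease. The comparison of EtOH-fed *Apoe* KO with EtOH-fed WT mice addresses it. All 10 genes had a fitted log2 fold change above 0, of which *Fn1* fell below 0 under median-of-ratios scaling (−0.05), and 5 of the 10 (*Thbs1*, *Sparc*, *Lum*, *Fbln2* and *Vcan*) passed the test at an adjusted p under 0.05, all higher in *Apoe* KO. Across all genes 4.25% passed in that direction. The median log2 fold change was 1.18 over the 10 genes and 0.11 over all 15052. The groups did not overlap, with every *Apoe* KO mouse above every WT mouse, for 3 of the 10 genes, against 7.12% of all genes. Without *Apoe* KO mouse 1, 6 genes passed (3.75% of all genes), since *Tnc* and *Ncam1* were added and *Vcan* was lost, and 7 genes did not overlap (11.1% of all genes). In whole liver, a higher value from more cells of a type and one from more RNA per cell cannot be told apart. The all-gene median of 0.107 became −0.020 under median-of-ratios scaling, which also moved the split of all calls from 90.5% to 75.1% higher, and under it 4 of the 10 genes passed.

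**Figure D2:**
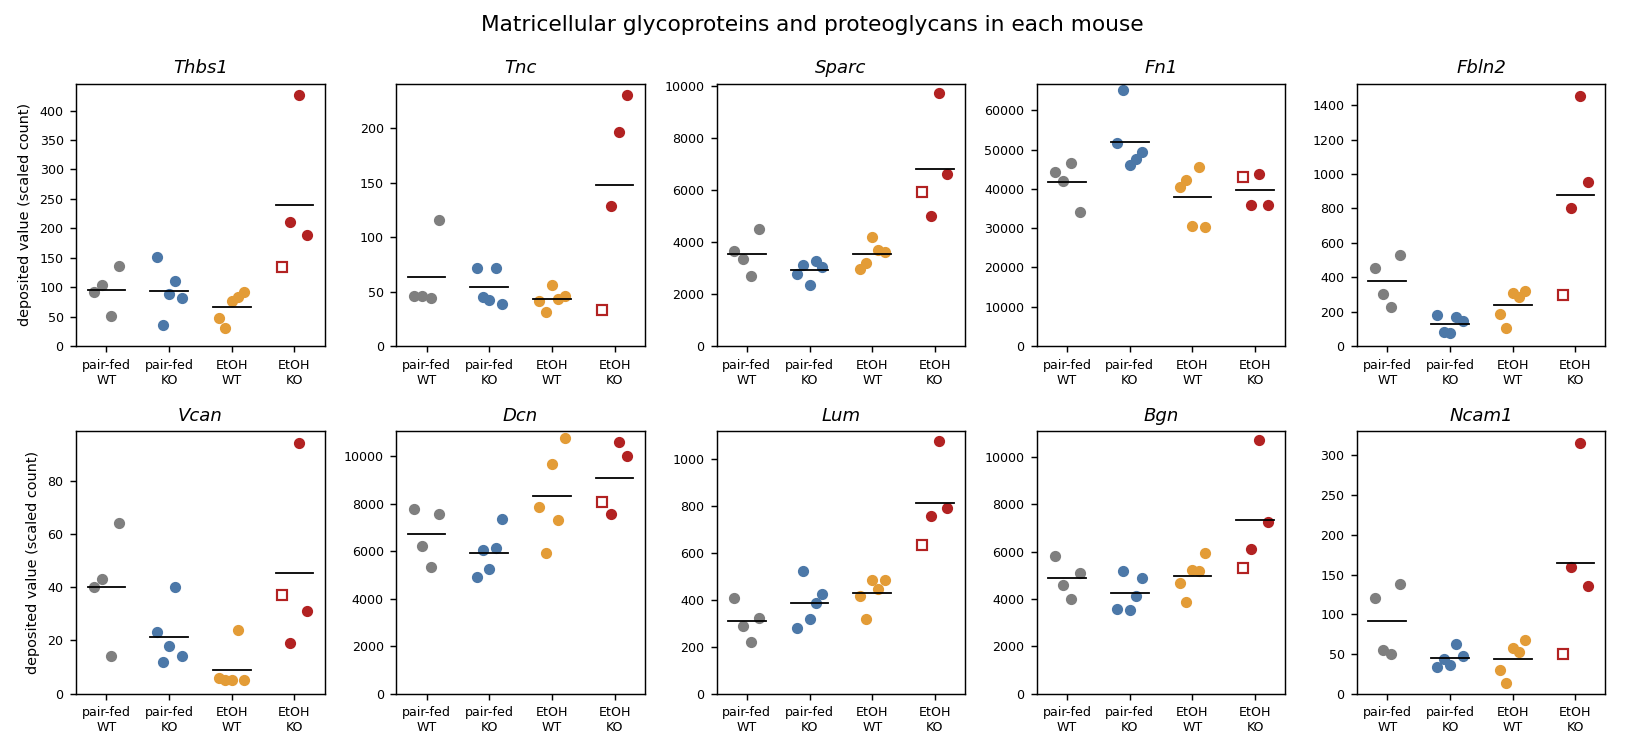
Deposited value of each gene in each mouse (linear axes from 0), 1 point per mouse and a line at the group mean; the open square is EtOH-fed *Apoe* KO mouse 1. *Thbs1*, *Sparc* and *Lum* lie higher in all 4 EtOH-fed *Apoe* KO mice than in all 5 EtOH-fed WT mice, while *Tnc* (33), *Fbln2* (299) and *Ncam1* (50) of mouse 1 fall among the WT values.

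Thrombospondin 1, which binds cells through CD47 and CD36 and can release active TGF-beta from its latent complex, is coded by *Thbs1* at chr2:118111876-118127133 (GRCm38, plus strand). Its values were 48, 30, 76, 83 and 91 in EtOH-fed WT mice and 134, 210, 426 and 188 in EtOH-fed *Apoe* KO mice 1, 2, 4 and 5. They were 92, 103, 51 and 136 in pair-fed WT and 152, 36, 89, 110 and 82 in pair-fed *Apoe* KO mice. The EtOH-fed groups did not overlap, and mouse 4 was highest of all 18. The fitted difference between them was 1.82 on the log2 scale (SE 0.37, 3.54-fold, adjusted p = 0.0143), and 2.06 without mouse 1 (adjusted p = 0.0153). It passed with each of the 9 mice left out in turn, but not in a fit without a trend of variance on level (adjusted p = 0.0510). The pair-fed genotypes overlapped throughout (log2 −0.08, adjusted p = 0.921). Ethanol raised *Thbs1* in *Apoe* KO mice by 1.35 (SE 0.39, adjusted p = 0.0239), although the groups overlapped through pair-fed mouse 1, and the call was lost without EtOH-fed mouse 4 (adjusted p = 0.0771). The change in WT mice was −0.56 (adjusted p = 0.343). The difference between those 2 responses, 1.91, did not pass in the fit of all 18 mice (adjusted p = 0.0814) and passed without pair-fed WT mouse 3 (adjusted p = 0.0398).

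Tenascin C, a large glycoprotein of wound and embryonic matrix that is nearly absent from resting tissue, is coded by *Tnc* at chr4:63959785-64047015 on the minus strand. It measured 41, 31, 56, 43 and 46 in EtOH-fed WT mice and 33, 129, 197 and 231 in EtOH-fed *Apoe* KO mice. Pair-fed WT mice had 46, 46, 44 and 116, and pair-fed *Apoe* KO mice 72, 45, 42, 72 and 39. Mouse 1 was within the WT range, and the other 3 *Apoe* KO mice were above every other mouse of the study. The log2 difference of 1.45 (SE 0.46) did not pass with mouse 1 (adjusted p = 0.0972) and was 2.06 (SE 0.29, adjusted p = 0.00576) without it. In the same way the ethanol response of *Apoe* KO mice was 1.17 (adjusted p = 0.0922) with mouse 1 and 1.77 (adjusted p = 0.00225) without it. Mouse 1 thus decides the calls for *Tnc*.

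SPARC, a calcium-binding matricellular protein that assists collagen assembly, is coded by *Sparc* at chr11:55394500-55423183 on the minus strand. Values were 2946, 3187, 4191, 3691 and 3592 in EtOH-fed WT mice and 5898, 4989, 9707 and 6598 in EtOH-fed *Apoe* KO mice, which stood above all other mice of the study. In pair-fed WT mice they were 3653, 3341, 2707 and 4497, and in pair-fed *Apoe* KO mice 2760, 3103, 2326, 3280 and 3040. The difference between EtOH-fed genotypes was 0.91 (SE 0.17, 1.88-fold, adjusted p = 0.00899), with mouse 1 inside its group. Without that mouse it was 0.97 (adjusted p = 0.0170). It passed with any 1 mouse left out, at adjusted p of 0.00610 to 0.0289. Ethanol raised *Sparc* 2.29-fold in *Apoe* KO mice (log2 1.19, SE 0.16, adjusted p = 2.62e-04), again with no overlap. For WT mice the estimate was 0.00 with a 95% confidence interval of −0.31 to 0.31. The 2 responses differed by 1.19 (SE 0.23, adjusted p = 0.0108), and this test passed with each of the 18 mice left out in turn.

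Fibronectin, the multi-adhesive glycoprotein that binds integrins and collagens, is coded by *Fn1* at chr1:71585520-71653200 on the minus strand, and it behaved unlike the other 9 genes. Its values were 40596, 42208, 30610, 45629 and 30363 in EtOH-fed WT mice and 42929, 36012, 43759 and 35997 in EtOH-fed *Apoe* KO mice. They were 44277, 42032, 46549 and 34020 in pair-fed WT mice and 51677, 65062, 46084, 47614 and 49414 in pair-fed *Apoe* KO mice. The EtOH-fed genotypes overlapped fully, with a log2 difference of 0.08 (95% confidence interval −0.24 to 0.40, adjusted p = 0.83) that became −0.05 under median-of-ratios scaling. Every EtOH-fed *Apoe* KO mouse was below every pair-fed *Apoe* KO mouse, and *Fn1* fell by 0.38 there (SE 0.12, adjusted p = 0.0376), or by 0.42 without mouse 1 (adjusted p = 0.0375). That call was lost without pair-fed mouse 1, 2 or 5 or EtOH-fed mouse 2 or 5, at adjusted p up to 0.106. It was also lost with all 4 groups in the fit (adjusted p = 0.0547), sample weights (0.0558), no variance trend (0.0683) or the replicate block (0.0543). In WT mice the ethanol estimate was −0.15 (adjusted p = 0.572), and the 2 responses were not shown to differ (−0.23, adjusted p = 0.610).

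Fibulin 2, an elastic-fibre and basement-membrane glycoprotein known as a marker of portal fibroblasts, is coded by *Fbln2* at chr6:91212455-91272540 on the plus strand and differed in the most comparisons. It measured 455, 301, 229 and 528 in pair-fed WT mice and 178, 79, 76, 167 and 144 in pair-fed *Apoe* KO mice, with no overlap. The EtOH-fed values were 188, 107, 307, 287 and 318 in WT and 299, 800, 1457 and 954 in *Apoe* KO mice. So *Fbln2* was lower in *Apoe* KO than in WT on the control diet and higher on the ethanol diet. In pair-fed mice the log2 difference was −1.56 (SE 0.30, 0.339-fold, adjusted p = 0.0202). It was the 1 gene of the 10 to pass there, where 0.864% of all genes passed in the same direction, and the 1 gene with no overlap, against 3.02% of all genes. The call was lost without pair-fed WT mouse 1, 2 or 4, at adjusted p up to 0.0882. Under ethanol the difference was 1.76 (SE 0.41, 3.38-fold, adjusted p = 0.0277), and 2.20 (SE 0.33, 4.61-fold, adjusted p = 0.00697) without mouse 1. That call was lost without EtOH-fed WT mouse 1 or *Apoe* KO mouse 2, 4 or 5, at adjusted p up to 0.0894, and without the variance trend both *Fbln2* calls were lost (adjusted p = 0.108 and 0.0913).

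The response of *Fbln2* to ethanol in *Apoe* KO mice was the largest of the 10, 2.64 on the log2 scale (SE 0.39, 6.24-fold, adjusted p = 4.69e-04), and it was 3.09 (8.51-fold, adjusted p = 9.72e-05) without mouse 1. The groups did not overlap in either case. In WT mice the estimate was −0.68 (95% confidence interval −1.37 to 0.02, adjusted p = 0.190). The 2 responses differed by 3.32 (SE 0.56, adjusted p = 0.00507), a test that passed with each of the 18 mice left out.

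Versican, a large chondroitin sulfate proteoglycan that binds hyaluronan, is coded by *Vcan* at chr13:89655312-89742509 on the minus strand. Its values were low in every mouse, at 40, 43, 14 and 64 in pair-fed WT, 23, 12, 18, 40 and 14 in pair-fed *Apoe* KO, 6, 5, 5, 24 and 5 in EtOH-fed WT, and 37, 19, 94 and 31 in EtOH-fed *Apoe* KO mice. *Vcan* was the 1 gene of the 10 that passed between EtOH-fed and pair-fed WT mice, where 6.52% of all genes passed in the same direction. It fell by 2.15 (SE 0.59, 0.226-fold, adjusted p = 0.0294), with EtOH-fed mouse 4 overlapping pair-fed mouse 3. The call was lost without pair-fed WT mouse 1, 2 or 4 or EtOH-fed WT mouse 1, 2 or 3, at adjusted p up to 0.0990. Between the EtOH-fed genotypes the difference was 2.24 (SE 0.59, adjusted p = 0.0463), with overlap, and 2.26 (adjusted p = 0.0865) without mouse 1. Of the 9 fits with 1 mouse left out, 2 kept this call, those without EtOH-fed WT mouse 4 and without *Apoe* KO mouse 2. It was also lost under median-of-ratios scaling (adjusted p = 0.0611). In *Apoe* KO mice the ethanol response was 0.93 (adjusted p = 0.208). The 2 responses differed by 3.07 (SE 0.79, adjusted p = 0.0381), a call kept in 4 of the 18 fits with 1 mouse left out, those without pair-fed WT mouse 3, pair-fed *Apoe* KO mouse 4, EtOH-fed WT mouse 4 or EtOH-fed *Apoe* KO mouse 2. Without *Apoe* KO mouse 1 its adjusted p was 0.0525, and the highest was 0.109.

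Decorin, lumican and biglycan are small leucine-rich proteoglycans, which bind collagen fibrils and tune fibril width, and decorin and biglycan also bind TGF-beta. Decorin (*Dcn*, chr10:97479609-97518143) and lumican (*Lum*, chr10:97565128-97572703) are neighbours on the plus strand of chromosome 10, and biglycan (*Bgn*, chrX:73483602-73495933, plus strand) is X-linked. *Dcn* measured 7756, 6235, 5339 and 7553 in pair-fed WT mice and 4929, 6056, 5242, 6116 and 7340 in pair-fed *Apoe* KO mice. Its EtOH-fed values were 7871, 5915, 9669, 7309 and 10750 in WT and 8058, 7583, 10611 and 10016 in *Apoe* KO mice. The EtOH-fed genotypes overlapped and were not shown to differ (log2 0.14, 95% confidence interval −0.21 to 0.50, adjusted p = 0.708). Between diets in *Apoe* KO mice every EtOH-fed value was above every pair-fed value, and *Dcn* rose by 0.61 (SE 0.13, 1.53-fold, adjusted p = 0.00483), or by 0.66 (adjusted p = 0.00644) without mouse 1. WT mice overlapped between diets, with an estimate of 0.29 (adjusted p = 0.290).

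*Lum* had values of 417, 318, 482, 446 and 482 in EtOH-fed WT mice and 634, 757, 1073 and 788 in EtOH-fed *Apoe* KO mice. Pair-fed WT mice had 409, 289, 219 and 324, and pair-fed *Apoe* KO mice 281, 524, 317, 385 and 424. The 4 EtOH-fed *Apoe* KO mice were the 4 highest of the study. *Lum* was 1.88-fold higher than in EtOH-fed WT mice (log2 0.91, SE 0.17, adjusted p = 0.00967), 2.03-fold without mouse 1 (adjusted p = 0.0113), and 2.11-fold higher than in pair-fed *Apoe* KO mice (log2 1.08, SE 0.19, adjusted p = 0.00147). Both calls held with any 1 mouse left out. In WT mice the ethanol estimate was 0.49 (SE 0.19, adjusted p = 0.106), which passed without pair-fed WT mouse 1 (adjusted p = 0.0463). The responses in the 2 genotypes were not shown to differ (0.59, adjusted p = 0.297).

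*Bgn* measured 4657, 3883, 5206, 5193 and 5955 in EtOH-fed WT mice and 5320, 6113, 10710 and 7256 in EtOH-fed *Apoe* KO mice. The pair-fed values were 5831, 4601, 4000 and 5075 in WT and 3572, 5200, 3547, 4108 and 4871 in *Apoe* KO mice. Mouse 1, whose sex-linked genes went against its label, overlapped the WT mice at *Bgn*, and the other 3 did not. That mouse was also the lowest of its group at *Thbs1*, *Tnc*, *Fbln2*, *Lum* and *Ncam1*, which are not X-linked. A part of sex in these values was not tested. The difference between EtOH-fed genotypes was 0.52 (SE 0.18, adjusted p = 0.124), and 0.66 (SE 0.18, adjusted p = 0.0599) without mouse 1. Ethanol raised *Bgn* in *Apoe* KO mice by 0.75 (SE 0.18, 1.69-fold, adjusted p = 0.00897) with no overlap, while the WT estimate was 0.03 (95% confidence interval −0.27 to 0.33).

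NCAM (*Ncam1*, chr9:49502136-49798925, minus strand) is a cell adhesion molecule of nerve cells that portal fibroblasts and stellate cells also carry in injured liver. It measured 30, 14, 57, 52 and 68 in EtOH-fed WT mice and 50, 160, 315 and 135 in EtOH-fed *Apoe* KO mice. Pair-fed WT mice had 121, 55, 50 and 138, and pair-fed *Apoe* KO mice 34, 44, 36, 62 and 47. Mouse 1 lay inside the EtOH-fed WT range and the other 3 mice lay above it. Between EtOH-fed genotypes the difference of 1.79 (SE 0.52) did not pass (adjusted p = 0.0684), and it was 2.26 (SE 0.48, adjusted p = 0.0236) without mouse 1. Ethanol raised *Ncam1* in *Apoe* KO mice by 1.62 (SE 0.42, 3.07-fold, adjusted p = 0.0140), or by 2.10 (4.27-fold, adjusted p = 0.00124) without mouse 1. In WT mice the estimate was −1.07 (SE 0.46, adjusted p = 0.146), and the 2 responses differed by 2.69 (SE 0.67, adjusted p = 0.0328), and by 3.17 without mouse 1 (adjusted p = 0.00754). This call was lost without WT mouse 1 or 4 or *Apoe* KO mouse 1 or 3 of the pair-fed groups, and without WT mouse 1 or 2 or *Apoe* KO mouse 2, 4 or 5 of the EtOH-fed groups, at adjusted p up to 0.0950.

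**Figure D3:**
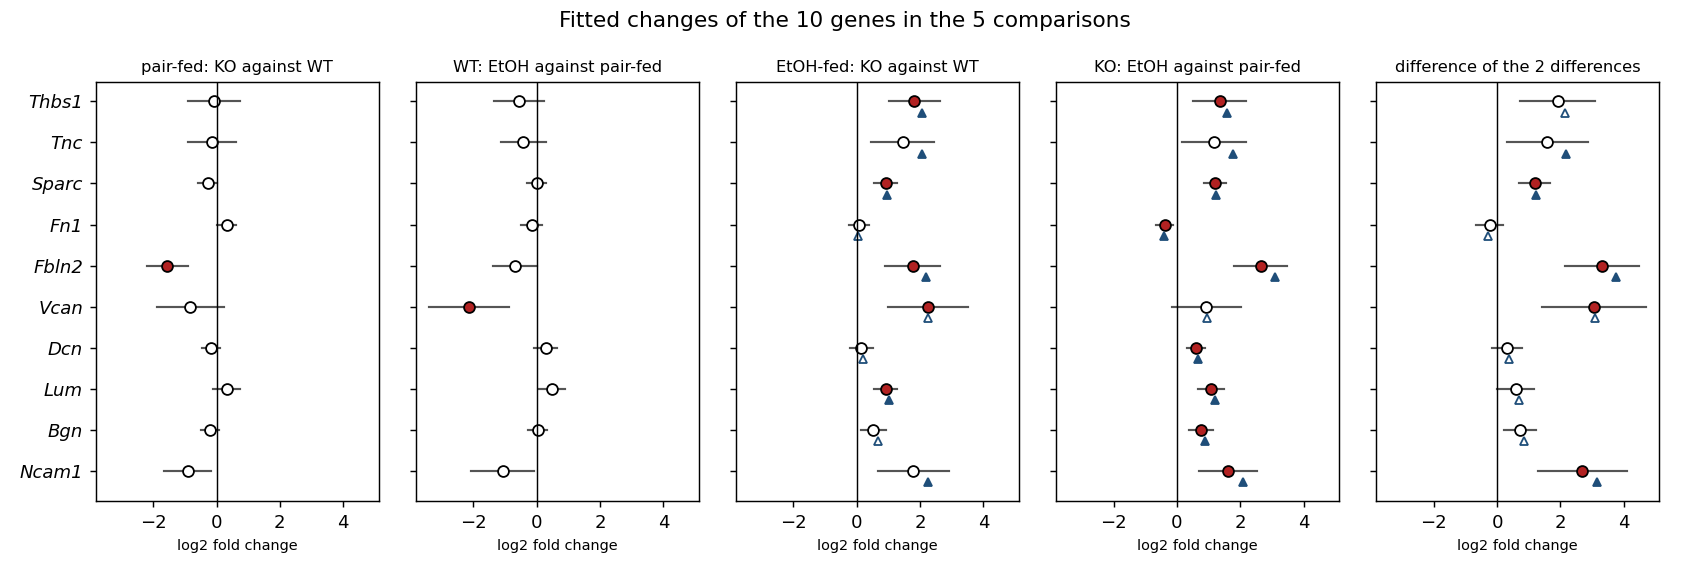
Fitted log2 fold change of each gene in 5 comparisons, with its 95% confidence interval; filled circles passed at an adjusted p under 0.05, and triangles give the fit without EtOH-fed *Apoe* KO mouse 1 (filled where it passed). In EtOH-fed mice all 10 circles lie above 0 (*Fn1* is −0.05 under median-of-ratios scaling), and between diets in *Apoe* KO mice 9 do, with *Fn1* at −0.38.

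Between diets 8 of the 10 genes passed in *Apoe* KO mice and 1, *Vcan*, in WT mice. Of the 8, *Fn1* was lost under 4 other settings of the fit. Between diets in *Apoe* KO mice, 7 genes passed as higher, where 16.3% of all genes did, and 1 (*Fn1*) as lower, where 6.92% did. Their groups did not overlap for 5 genes upward (14.0% of all genes) and for *Fn1* downward (6.01%). The median was 1.12 over the 10 genes and 0.13 over all genes. Without mouse 1, 8 genes passed as higher (15.8% of all genes), 1 as lower (6.26%), and 8 did not overlap upward (18.8%). In WT mice the median over the 10 genes was −0.28 and that of all genes −0.01. For the pair-fed genotypes these medians were −0.19 and 0.00, and 8 of the 10 estimates lay below 0. The test of the difference between the 2 ethanol responses passed for 4 genes, *Fbln2*, *Vcan*, *Ncam1* and *Sparc*, all with the more positive response in *Apoe* KO mice, where 2.60% of all genes passed in that direction. Without mouse 1 it also passed for 4, with *Tnc* (2.19, adjusted p = 0.0125) in place of *Vcan*, against 2.96% of all genes. These comparisons share groups of mice, so that their counts are not independent of one another. Under median-of-ratios scaling the split of all calls between diets in *Apoe* KO mice moved from 70.1% to 50.8% higher and that of the difference test from 91.6% to 77.8%, and the counts of the 10 genes stayed at 8 and 4.

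The 3 small leucine-rich proteoglycans did not move in proportion. Ratios between them within a mouse do not depend on the scaling of that mouse, and they were compared by exact two-sided permutation tests, chosen after the values were seen, with p-values adjusted over 12 tests. With 4 against 5 mice the smallest p this test can give is 0.0159. The log2 ratio of *Lum* to *Bgn* was −3.83, −3.99, −4.19 and −3.97 in pair-fed WT mice and −3.67, −3.31, −3.48, −3.42 and −3.52 in pair-fed *Apoe* KO mice. It was −3.48, −3.61, −3.43, −3.54 and −3.63 in EtOH-fed WT and −3.07, −3.01, −3.32 and −3.20 in EtOH-fed *Apoe* KO mice. Pair-fed WT mice stood below all others, and EtOH-fed *Apoe* KO mice above both WT groups. *Apoe* loss raised this ratio by 0.52 on the control diet (p = 0.0159, adjusted p = 0.0381, exact permutation test) and by 0.39 under ethanol (p = 0.0159, adjusted p = 0.0381, exact permutation test). Ethanol raised it by 0.46 in WT mice (p = 0.0159, adjusted p = 0.0381, exact permutation test) and by 0.33 in *Apoe* KO mice (p = 0.0317, adjusted p = 0.0476, exact permutation test). The first 3 differences kept a p under 0.05 with any 1 mouse left out, and the difference under ethanol was 0.36 (p = 0.0357, exact permutation test) without mouse 1. The difference between diets in *Apoe* KO mice kept it only without pair-fed mouse 2 or EtOH-fed mouse 4, and without mouse 1 it was 0.30 (p = 0.0714, exact permutation test).

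The ratio of *Lum* to *Dcn* likewise differed between genotypes on both diets, with no overlap. Its log2 mean was −4.46 ± 0.16 (SD, n = 4) in pair-fed WT and −3.96 ± 0.25 (n = 5) in pair-fed *Apoe* KO mice, a difference of 0.49 (adjusted p = 0.0381, exact permutation test). Under ethanol it was −4.26 ± 0.16 (n = 5) in WT and −3.49 ± 0.20 (n = 4) in *Apoe* KO mice, a difference of 0.77 (adjusted p = 0.0381, exact permutation test), or 0.83 (p = 0.0357, exact permutation test) without mouse 1, the smallest p that 3 against 5 mice allow. So the levels of *Lum*, which were not shown to differ between pair-fed genotypes by themselves (log2 0.32, adjusted p = 0.407), differed relative to both relatives. The ratio of *Bgn* to *Dcn* overlapped in all 4 comparisons, with differences of 0.38 between EtOH-fed genotypes and −0.26 between diets in WT mice (both adjusted p = 0.0476, exact permutation test), and −0.02 between pair-fed genotypes (adjusted p = 0.841, exact permutation test). The first of these kept a p under 0.05 only without EtOH-fed WT mouse 4 or *Apoe* KO mouse 1 (0.47, p = 0.0357, exact permutation test), and the second only without pair-fed WT mouse 4 or EtOH-fed WT mouse 4. Between diets in *Apoe* KO mice the *Lum* to *Dcn* difference was 0.47 (adjusted p = 0.0635, exact permutation test), and 0.53 (p = 0.0714, exact permutation test) without mouse 1.

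**Figure D4:**
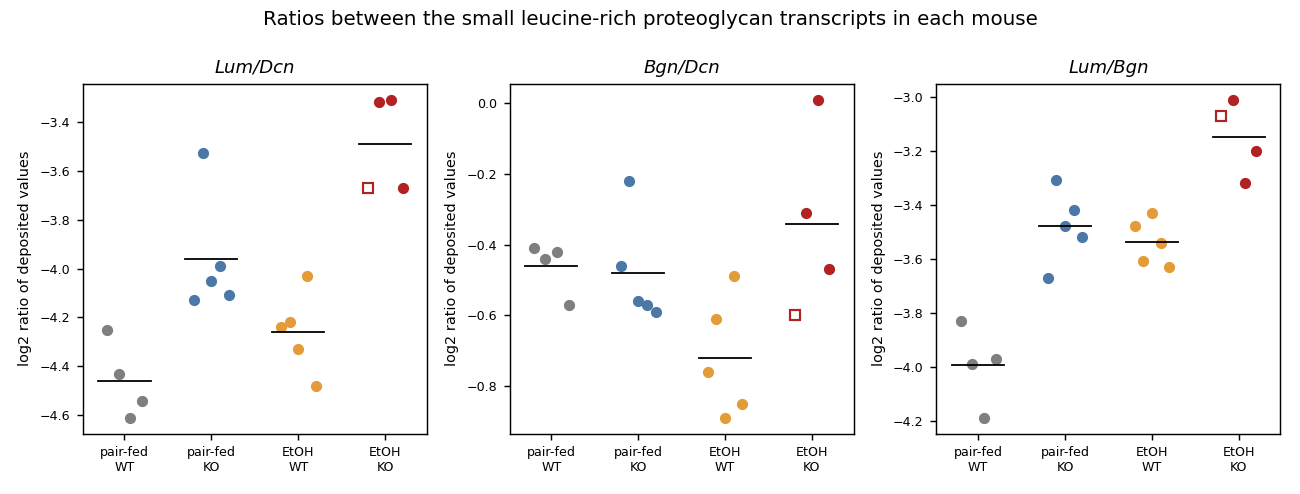
Log2 ratio between the deposited values of *Lum*, *Dcn* and *Bgn* in each mouse, by group, with a line at the group mean; the open square is EtOH-fed *Apoe* KO mouse 1. The *Lum* to *Dcn* and *Lum* to *Bgn* ratios of the *Apoe* KO mice lie above those of the WT mice on the same diet without overlap, and the *Bgn* to *Dcn* ratios overlap.

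Within groups, mice that were high in 1 gene tended to be high in the others. The deviations of each log2 value from its group mean were correlated over the 18 mice, with p-values from 100000 permutations within groups and adjustment over the 45 pairs. Of the 45 correlations 38 were positive, the median was 0.52, and 21 passed at an adjusted p under 0.05, all positive and none involving *Fn1*. Pairs of genes outside the family were not counted in the same way, so these numbers are not shown to be particular to it. *Lum* and *Bgn* varied together most closely (Pearson's r 0.92, p = 1.00e-05, the smallest these permutations can give, adjusted p = 4.50e-04, and Spearman's rho 0.95, permutation p = 1.00e-05). The correlation was 0.93 without the 2 mice farthest from the median. *Dcn* followed *Bgn* (r 0.81, adjusted p = 0.00120, rho 0.84, permutation p = 1.40e-04) and *Lum* (r 0.79, adjusted p = 0.00135, rho 0.85, permutation p = 7.00e-05), and these were 0.77 and 0.83 without the 2 farthest mice.

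*Fbln2* varied with *Ncam1* (r 0.88, p = 2.40e-04, adjusted p = 0.00174, rho 0.82, permutation p = 5.40e-04), *Thbs1* (r 0.84, p = 8.00e-05, adjusted p = 0.00120, rho 0.86, permutation p = 1.10e-04) and *Tnc* (r 0.80, p = 3.80e-04, adjusted p = 0.00214, rho 0.81, permutation p = 3.70e-04). Without the 2 farthest mice these were 0.77, 0.81 and 0.71, and over the 14 mice outside the EtOH-fed *Apoe* KO group they were 0.82, 0.85 and 0.69. *Ncam1* also varied with *Bgn* (r 0.81, p = 2.70e-04, adjusted p = 0.00174, rho 0.81, permutation p = 2.20e-04), and with *Lum* (r 0.77) and *Dcn* (0.74) at least as closely as with *Thbs1* and *Tnc* (both 0.69). *Vcan* was not shown to vary with *Fbln2* (r 0.48), *Ncam1* (0.42) or *Tnc* (0.32, adjusted p of at least 0.132 for these 3 by the permutation test), while *Thbs1* and *Lum* were not shown to vary together (r 0.25, adjusted p = 0.418 by the permutation test). *Fn1* had 7 negative correlations out of 9, the most negative with *Thbs1* (r −0.49, adjusted p = 0.109). Leaving out 1 mouse gave 13 to 25 passing pairs, with 13 each without pair-fed WT mouse 3, pair-fed WT mouse 4 or EtOH-fed WT mouse 2, and 17 without EtOH-fed *Apoe* KO mouse 1.

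**Figure D5:**
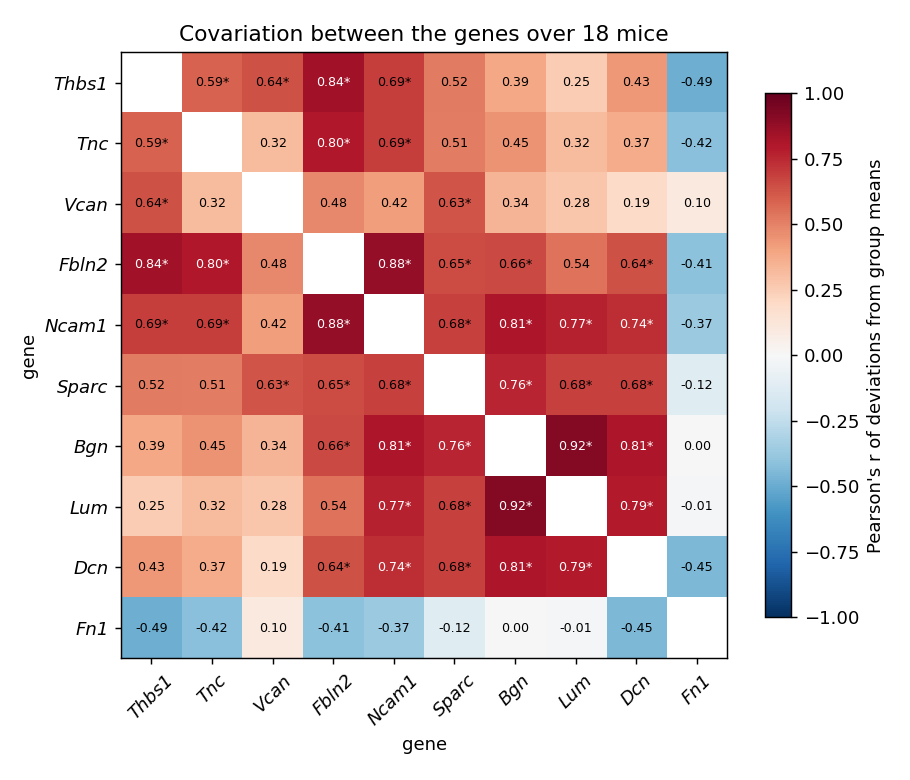
Pearson's r between the genes, over the deviations of the log2 values of 18 mice from their group means; an asterisk marks an adjusted p under 0.05. *Lum*, *Bgn* and *Dcn* form 1 block (0.79 to 0.92), *Fbln2* pairs with *Thbs1*, *Tnc* and *Ncam1* (0.80 to 0.88), and the row of *Fn1* is near 0 or negative.

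Depth was set beside these deviations. In the 16 mice with estimated reads, the deviation of log2 reads from the group mean was negatively correlated with that of *Fbln2* (r −0.70, permutation p = 0.0173, adjusted p over 10 genes = 0.117, rho −0.62, permutation p = 0.0358) and *Thbs1* (r −0.65, permutation p = 0.0235, adjusted p = 0.117, rho −0.62, permutation p = 0.0303). Without the 2 mice of most extreme depth these were −0.52 and −0.51. The other scarce genes ran the same way, *Tnc* at −0.58, *Ncam1* at −0.51 and *Vcan* at −0.46 (adjusted p = 0.232 for each, permutation test). For *Sparc*, *Lum*, *Dcn*, *Bgn* and *Fn1* the correlation lay between −0.35 and 0.05, with adjusted p of at least 0.512 (permutation test). None of the 10 passed the adjustment. The part of depth in the group differences was not tested, and 3 of the 4 EtOH-fed *Apoe* KO mice, all but mouse 1, had fewer estimated reads than each of the 3 resolved EtOH-fed WT mice.

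For each of the 10 genes, the 2 outside genes with the closest profile over the 18 mice were taken. They were ranked by Pearson's r of log2 values among 10736 genes with a mean value of at least 100. These r include the group differences, and no reference for the best of so many genes was computed. On deviations from the group means the same pairs had r from 0.68 (*Lum* with *Hccs*) to 0.95 (*Dcn* with *Slc43a3*). *Sparc* was most like the basement membrane collagen genes *Col4a1* (r 0.965) and *Col4a2* (0.950). *Bgn* was most like *Timp2* (0.951), an inhibitor of metalloproteinases, and *Epb41l1* (0.921), and *Fbln2* was most like *Dpysl3* (0.968) and *Pkm* (0.964). *Dcn* was most like *Slc43a3* (0.967) and *Ms4a4d* (0.916), *Lum* like *Hccs* (0.921) and *Gpx3* (0.919), and *Ncam1* like *Cpe* (0.944) and *Mir100hg* (0.938). *Thbs1* was most like *Anxa1* (0.918) and *Tm4sf1* (0.906), *Tnc* like *Cav1* (0.868) and *Il33* (0.867), and *Vcan* like *H2-DMb1* (0.944) and *S100a6* (0.905). *Fn1* was most like *Pzp* (0.928), a secreted protease inhibitor of hepatocytes, and *Slc31a1* (0.927), a copper importer. No 2 of the 10 genes shared a partner.

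Lists of related genes, written with earlier results of these data known, are given beside the share of all genes that passed as higher, 4.25% between the EtOH-fed genotypes and 16.3% between diets in *Apoe* KO mice (6.92% as lower). Of 37 other secreted matrix glycoproteins in the table, 5 passed between the EtOH-fed genotypes as higher in *Apoe* KO and none as lower, with a median log2 fold change of 0.53. They include *Lamc1*, a laminin chain (672 ± 46.0 in WT, n = 5, and 1114 ± 196 in *Apoe* KO, n = 4, adjusted p = 0.00755), *Fbn1*, which codes for fibrillin 1 (139 ± 30.0 and 285 ± 112, adjusted p = 0.0423), the matrilin gene *Matn2* (log2 fold change 0.95, SE 0.21, adjusted p = 0.0222) and the integrin ligand *Npnt* (59.2 ± 33.6 and 232 ± 151, adjusted p = 0.0301). Between diets in *Apoe* KO mice 17 of the 37 were higher and 1 was lower. Of 24 other proteoglycans in the table, 1 passed between the EtOH-fed genotypes, the syndecan gene *Sdc3* (929 ± 207 and 2050.5 ± 641, adjusted p = 0.00904), and the median was 0.21, so that this share was near that of all genes. Between diets in *Apoe* KO mice 10 were higher and 4 lower. Without mouse 1, 4 glycoproteins and 2 proteoglycans were higher between the EtOH-fed genotypes, and 15 and 9 between diets.

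Among 29 genes of receptors and other partners that bind these proteins, 6 were higher and none lower between the EtOH-fed genotypes, with a median of 0.37. They included the hyaluronan receptor gene *Cd44* (399 ± 73.8 in WT and 881 ± 248 in *Apoe* KO, adjusted p = 0.00598), the leukocyte integrin gene *Itgb2* (236 ± 54.6 and 500 ± 120, adjusted p = 0.00951), *Calr*, which binds thrombospondin 1 at the cell surface (16969 ± 2157 and 25869 ± 1057, adjusted p = 0.00805), and *Tlr2*, a receptor of biglycan (log2 fold change 1.34, SE 0.29, adjusted p = 0.0183). Of 28 enzymes that build chondroitin and dermatan sulfate chains 1 passed, *Ugdh*, which makes the UDP-glucuronate of the chains, with a list median of 0.28 (5179.8 ± 1239.9 and 10234 ± 1361, adjusted p = 0.00482). Of 25 genes on a list of proteases, which also holds the enhancer gene *Pcolce*, 8 were higher and none lower, with a median of 0.86. The macrophage elastase gene *Mmp12* (42.0 ± 8.54 and 214 ± 93.5, adjusted p = 0.00152), *Ctss* (888 ± 236 and 2068 ± 459, adjusted p = 0.00387), *Plat* (33.8 ± 10.1 and 144 ± 79.7, adjusted p = 0.00680) and *Pcolce* (349 ± 55.7 and 728 ± 192, adjusted p = 0.00629), whose product enhances procollagen processing, had the lowest p. Of 29 genes of the TGF-beta axis 4 were higher and none lower, with a median of 0.22, among them the latent binding protein genes *Ltbp1* (309 ± 84.7 and 719 ± 354, adjusted p = 0.0321) and *Ltbp3* (238 ± 69.1 and 567 ± 223, adjusted p = 0.0202). The all-gene median beside these lists was 0.11, and 1 of 28 enzymes is near the 4.25% of all genes. Without mouse 1, where 3.75% of all genes passed, 5 genes of the receptor list, 2 chain enzymes, 7 genes of the protease list and 4 genes of the TGF-beta axis were higher. Between diets in WT mice *Cd44* (log2 −0.69, adjusted p = 0.0287, limma), *Ctss* (−0.70, 0.0189) and *Pcolce* (−0.55, 0.0434) fell. They rose in *Apoe* KO mice (0.89, 0.83 and 0.90). *Itgb2*, *Calr* and *Tlr2* were not called between diets in either genotype. *Mmp12*, *Plat*, *Ltbp1* and *Ltbp3* rose in *Apoe* KO mice and were not called in WT mice, and *Ugdh* rose in both.

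Markers of several cell types moved with the family. Of 21 markers of stellate cells and myofibroblasts 6 were higher between the EtOH-fed genotypes and none lower, with a median of 0.44, and their summed value was 16126 to 23156 in EtOH-fed WT and 24045 to 43758 in EtOH-fed *Apoe* KO livers. The fibrillar collagen genes *Col1a1* (1201 ± 415 and 4893 ± 2319, adjusted p = 0.00216) and *Col3a1* (1473 ± 385 and 5158 ± 2393, adjusted p = 0.00209) led them. With *Col1a2* (1449 ± 351 and 4053 ± 1556) these abundant genes weigh heavily in the difference of the sums. The sums therefore do not show a rise of the list as a whole. Of 12 markers of portal fibroblasts and mesothelial cells none passed between those groups by limma and 6 had an unadjusted p under 0.05, all higher, while the median was 0.68 and the sums were 937 to 2248 and 2094 to 3815. Between diets in *Apoe* KO mice 12 of 13 endothelial markers, 14 of 21 stellate markers and 7 of these 12 were higher, against 16.3% of all genes, and 12, 12 and 6 were without mouse 1. In WT mice 9 of 13 endothelial markers were also higher with ethanol (6.19% of all genes), with a median of 0.73, where the 10 genes had a median of −0.28. Of 17 markers of macrophages and monocytes 13 were higher between the EtOH-fed genotypes, with a median of 1.25 and sums of 9476 to 14747 and 21145 to 33631. They were led by *Cd68* (220 ± 36.7 and 558 ± 39.8, adjusted p = 7.25e-04) and *Cd5l* (2017 ± 626 and 6856 ± 2016, adjusted p = 0.00120). Between diets 7 of the 17 were higher in *Apoe* KO mice (median 0.77), while in WT mice none was higher and 4 were lower (median −0.59). *Cd5l* fell with ethanol in WT mice (log2 −0.78, adjusted p = 0.0284, limma). In *Apoe* KO mice its change of 0.48 did not pass (adjusted p = 0.132, limma), and *Cd68* rose by 0.90 (adjusted p = 0.00105, limma). The 13 endothelial markers had a median of −0.04 between the EtOH-fed genotypes, with none passing by limma, 1 at an unadjusted p under 0.05, and sums of 11020 to 15022 and 10802 to 17718. The 11 hepatocyte markers had a median of −0.02 with none passing by limma and 1 at an unadjusted p under 0.05, and their sums, 2313055 to 3903963 and 2529954 to 3448798, overlapped throughout. Of 8 biliary markers 1 passed (the cholangiocyte keratin gene *Krt19*, 163 ± 141 and 610 ± 447, adjusted p = 0.0445), with sums of 1249 to 2026 and 1744 to 3994. Of 5 genes listed as platelet markers 1 passed (*Clec1b*, 325 ± 50.3 and 616 ± 128, adjusted p = 0.00951), with sums of 437 to 700 and 727 to 1037. *Clec1b* held 64.8% of the summed values of that list, so the sums mainly follow this 1 gene and do not measure platelets. Of 9 lymphocyte markers none passed by limma, with 0 at an unadjusted p under 0.05 and sums of 206 to 366 and 273 to 499. In these marker lists 2 genes, the platelet marker *Gp1ba* and the lymphocyte marker *Cd4*, were at 0 in 1 mouse each, and no listed marker was at 0 in a whole group. Without mouse 1 the stellate, portal and macrophage counts between the EtOH-fed genotypes were 6, 2 and 12. Between diets *Krt19* fell in WT mice (log2 −1.86, adjusted p = 0.0201, limma) and rose in *Apoe* KO mice (1.32, 0.0303). *Clec1b* also fell in WT mice (−0.50, adjusted p = 0.0436, limma) and rose in *Apoe* KO mice (0.58, 0.0349). The part of these cell types in the values of the 10 genes was not tested.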

How the data were processed

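Livers of 18 mice were profiled by polyA RNA-seq. Per the labels and the study's methods, RNA was extracted with TRIzol, reads were checked, trimmed and aligned to GRCm38 with FastQC, Trimmomatic, HISAT2 and SAMtools, and counted per gene with featureCounts, and DESeq2 was used for testing (versions not given in the sources used here). The deposited values, a signal scaled by the authors to totals of 32267493 to 32292618 per mouse and rounded, are not raw counts, and the scaling step is not described. The table also holds columns with the results of the authors' comparisons (fold changes, p-values), which were left out. Of 15247 lines, 195 were further entries of 56 genes, which left 15052 genes. Low values step by the worth of 1 read, which gave the estimated depth of 16 mice.

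Values were tested as log2(value + 1), so that folds of low genes are understated, with limma 3.58.1 in R 4.3.3 (empirical Bayes with an intensity trend) on the mice of the groups compared, or on all mice for the difference between responses. P-values were adjusted over all genes by the Benjamini-Hochberg method, with a threshold of 0.05. Count models were not run, since the values are scaled. Data of the same size were simulated (15052 genes, EtOH-fed *Apoe* KO against EtOH-fed WT). The test recovered 100 of 100 genes changed 4-fold and 78 of 100 changed 2-fold, with 15 unchanged genes called. These rates are not shown to hold for the genes described here, whose spread between mice differed. In EtOH-fed *Apoe* KO mice it was narrow for *Fn1* (39674 ± 4251, SD, n = 4). It was wide for *Tnc* (148 ± 87.3), *Fbln2* (878 ± 477) and *Vcan* (45.2 ± 33.4). Other steps used Python 3.11.15, numpy 2.4.6, scipy 1.17.1, pandas 2.3.3 and matplotlib 3.10.9. Gene positions and exon lengths are from GENCODE M21.

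The 10 genes and all lists were chosen with earlier results of these data known. Named besides them were *Apoe* and sex-linked genes as label checks, up to 4 genes per list with the lowest p among those passing between EtOH-fed genotypes, and for each of the 10 genes the 2 outside genes with the highest correlation. One gene that this rule would name is not reported here. The markers at 0 and the ratios were chosen after values were seen. Nothing in the labels says that mice of a group came from separate litters or cages, so p-values measure the spread between these mice. Alternatives were another scaling, pseudocounts of 0.1 and 10, a minimum mean value of 50, all 4 groups in 1 fit, sample weights, no variance trend, a replicate block, and each mouse left out.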

Additional observations from a re-analysis of the deposited data

Results flagged for a closer look

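In 40 groups of 4 or 5 mice (10 genes in 4 groups), 2 held a mouse far from the rest, and chance alone gives about 1 in 20 such groups. *Tnc* in pair-fed WT mouse 4 measured 116 against 44 to 46 in the other 3, a gap of 0.954 of the group's whole range. *Vcan* in EtOH-fed WT mouse 4 measured 24 against 5 to 6 in the other 4, a gap of 0.892 of the range.

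For 4 genes the ethanol response differed between *Apoe* KO and WT mice by a test of the difference itself. The log2 difference between responses was 3.32 for *Fbln2*, 3.07 for *Vcan*, 2.69 for *Ncam1* and 1.19 for *Sparc*. With 1 of the 18 mice left out in turn, it passed in all 18 fits for *Fbln2* and *Sparc*. It passed in 9 for *Ncam1* and in 4 for *Vcan*.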

How the results depend on the processing

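With the variance trend left out, 2 of the 10 genes passed between EtOH-fed genotypes in place of 5, 0 between pair-fed genotypes in place of 1, 6 between diets in *Apoe* KO mice in place of 8 (*Thbs1*, adjusted p = 0.0626, and *Fn1*, 0.0683, lost by limma), and 3 in place of 4 for the difference between responses (*Ncam1*, 0.0605, lost). With a minimum mean value of 50, which removes *Vcan*, 0 passed between diets in WT mice in place of 1. The log2 fold change of *Fn1* between EtOH-fed genotypes turned from 0.08 to −0.05 under median-of-ratios scaling. Between diets in WT mice, estimates near 0 changed sign with sample weights (*Sparc* −0.02, *Bgn* −0.01) and with the replicate block (*Sparc* −0.01, *Bgn* −0.04). The cause was not tested.

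With 1 mouse left out, the number of the 10 genes passing was 3 to 6 between EtOH-fed genotypes, 0 to 1 between pair-fed genotypes, 0 to 1 between diets in WT mice, 7 to 9 between diets in *Apoe* KO mice and 2 to 5 for the difference between responses, and 13 to 25 pairs of genes varied together. Log2 differences that changed sign ranged from −0.35 to 0.22 for *Thbs1* and −0.26 to 0.20 for *Tnc* between pair-fed genotypes, from −0.12 to 0.12 for *Sparc* and −0.06 to 0.12 for *Bgn* between diets in WT mice, and from −0.09 to 0.00 for the *Bgn* to *Dcn* ratio between pair-fed genotypes.

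The replicate block gave 8 passing genes between EtOH-fed genotypes, with *Tnc* (adjusted p = 0.0494), *Bgn* (0.0382) and *Ncam1* (0.0228) added by limma. Same-numbered mice of those groups correlated at 0.227, −0.0449, 0.313 and 0.188, and those of the other comparisons between −0.284 and 0.223. No comparison had every pair above 0.1, so the numbers were not taken to pair the mice. Under the alternatives other than leaving out a mouse, 362 values kept their direction and side of the threshold. Of the others, 13 lost a call, 5 gained a call and 5 changed sign. At an estimated 6.10 to 52.6 reads per mouse, depth limits *Vcan* most.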
